A study of Caenorhabditis elegans with 6 samples.

Results

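The genes examined here are the Hedgehog-related and Patched-related families of the nematode Caenorhabditis elegans, measured in worms exposed to diazinon (DZN) and in unexposed worms. DZN is an organophosphorus insecticide and blocks acetylcholinesterase, the enzyme that breaks down the transmitter acetylcholine. Members were chosen by gene symbol. Symbols with wrt (warthog), grd (ground), grl (ground-like) or hog and a number, together with qua-1, formed the ligand-like class. Symbols with ptr or ptc and a number formed the Patched-like class. In total 83 of the 17922 genes with a probe belonged, 56 ligand-like (10 wrt, 14 grd, 30 grl, hog-1 and qua-1) and 27 Patched-like (24 ptr and 3 ptc). They carried 86 of the 22490 worm probes, and 88 such genes stand in the RefSeq annotation. No probe was matched to grd-13, grd-15, grl-25 or the pseudogenes grd-17 and grl-32.

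Both groups were whole worms of the wild-type strain N2, raised from synchronised eggs on agar seeded with the Escherichia coli strain OP50 and collected at 72 h and 16 °C. DZN-treated worms grew on agar holding DZN dissolved in acetone, and control worms on agar with acetone alone. The labels place the worms at L3 to L4, the treatment protocol at L3, so the larval stage is not settled. The dose is not settled either, because the sample names give 1 mg/ml, the protocol gives 0.5 mg/ml, and the methods state a concentration per litre. Each of 6 two-colour arrays held 1 DZN extract and 1 control extract, with DZN in Cy5 on 3 arrays (DZN-Cy5 replicates 1 to 3) and in Cy3 on the other 3 (DZN-Cy3 replicates 1 to 3). The study describes the 6 as biological replicates, each a pool of worms from 4 dishes.

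In flies and vertebrates, Hedgehog ligands bind Patched, a membrane protein with a sterol-sensing domain, and so release Smoothened and the transcription factors of the GLI family. C. elegans has no clear Hedgehog orthologue and no Smoothened. It has instead a large set of secreted proteins with Wart, Ground or Ground-like domains, some of which carry the self-cleaving Hog domain of true Hedgehog, and an enlarged family of Patched relatives. Many of these genes are active in the epidermis, in glia or in other cells that secrete cuticle, and the transcripts of many rise and fall with each moult.

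Arrays differed in brightness and agreed weakly. Between 49.7% and 66.2% of probes were above background per channel on the DZN-Cy5 arrays, against 63.3% to 81.4% on the DZN-Cy3 arrays, so the orientations also differed in brightness and these cannot be told apart. The correlation of log2 ratios between 2 arrays, across probes, ran from -0.24 to 0.57 with a median of 0.13. Of the 14 genes that mark intestine, muscle, pharynx, neurons, hypodermis and germline, 13 were detected, that is, above background in at least 3 of the 6 channels of 1 treatment. Of the members, 46 of 56 ligand-like and 25 of 27 Patched-like genes were detected. The probes of grl-18, a gene of socket glia, and of grl-29 were above background in no channel, so they show no level.

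No member passed the limma test across all worm probes at an adjusted p of 0.05, which 0.0178% of all probes did. Most ratios of DZN over control were below 0. Of the 56 ligand-like genes 44 had a log2 ratio below 0, with a median of -0.15. Of the 27 Patched-like genes 17 were below 0, with a median of -0.06, whereas over all genes 51.6% were below 0 and the median was -0.01. Among detected genes only, 38 of 46 ligand-like and 17 of 25 Patched-like genes were below 0 (medians -0.17 and -0.12), against 54.1% of all detected genes (median -0.02). These are descriptions of related genes and carry no test. In RNA of whole worms, fewer cells of a type and less RNA per cell cannot be told apart. The arrays had been scanned at 3 photomultiplier settings, 1 each for DZN-Cy5 replicates 1 and 2, DZN-Cy3 replicates 1 and 2, and both replicates numbered 3. With that setting as a term, 4 members passed (adjusted p of 0.0315 for wrt-6, 0.0371 for grl-27, 0.0416 for grl-30 and 0.0416 for ptr-22), as did 379 of all probes. That fit matches both arrays numbered 3 exactly and takes the spread of a probe only from replicates 1 and 2 of the same orientation. Its p-values therefore do not measure the spread between settings or orientations. Within the settings, in that order, the mean ratio was -0.15, -0.71 and -1.29 for wrt-6, -0.13, -2.09 and -0.26 for grl-30, and 0.39, 1.20 and 0.32 for ptr-22. The ligand-like median was -0.07, -0.14 and -0.25, below 0 at each setting, and the Patched-like median was -0.01, 0.11 and -0.24.

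**Figure D1:**
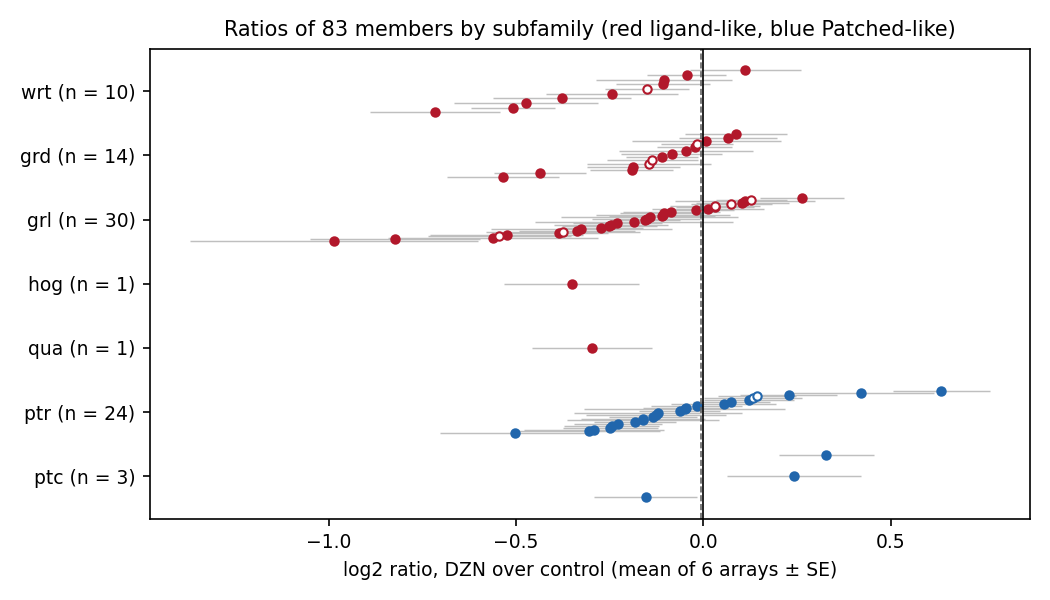
Log2 ratio of DZN over control for each of 83 members (1 point per gene, horizontal axis), grouped by subfamily down the page. Bars are 1 standard error from the limma fit to 6 arrays, with the difference between dye orientations taken out. Filled points are detected genes and open points are not, the solid line is 0 and the dashed line is the median of all genes. Most wrt, grd and grl genes lie left of 0 (9 of 10, 11 of 14 and 22 of 30), while the highest ratio belongs to ptr-22.

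Without adjustment, 11 ligand-like genes and 1 Patched-like gene had a p under 0.05 with a ratio below 0, which is 19.6% and 3.7% of each class, against 7.49% of all probes and 8.51% of all genes by their brightest probe. Among detected genes it was 10 of 46 and 1 of 25, or 21.7% and 4.0%, against 10.9% of all detected genes. In the other direction it was 1 ligand-like and 2 Patched-like genes, 1.79% and 7.41%, against 3.37% of all probes and 3.3% of all genes. The lower genes were wrt-4, wrt-6, wrt-10, grd-2, grd-5, grl-7, grl-19, grl-20, grl-27, grl-28, grl-30 and ptr-16, and the higher ones were grl-13, ptc-1 and ptr-22. The count of lower members was 7 when DZN-Cy5 replicate 2 was left out. The count of higher members was 1 without DZN-Cy5 replicate 2 and likewise 1 without DZN-Cy3 replicate 2. The share of all probes with these arrays left out was not counted. Some members had ratios of 1 sign on 6 of 6 arrays. The ligand-like genes wrt-6, grd-5, grl-7, grl-19 and grl-17 were negative on every array (8.93% of the class, against 3.11% of all probes and 3.51% of all genes), and no Patched-like gene was. The Patched-like genes ptr-22 and ptc-1 were positive on every array (7.41%, against 2.06% of all probes and 2.07% of all genes), and no ligand-like gene was. The differences between the classes in these counts were not tested.

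Among the warthog genes, secreted proteins with a Wart domain, wrt-6 (ZK377.1) had the lowest ratio and wrt-9 was the only 1 of 10 above 0. The log2 intensity of wrt-6 was between 9.71 and 12.35 in DZN-treated worms with a median of 11.56, and between 11.23 and 13.02 in control worms with a median of 12.36. The ranges overlapped, but on each array the DZN channel was the lower one. Its log2 ratio was -0.72 ± 0.17 (SE from the limma fit, n = 6 arrays, limma adjusted p = 0.255), a level of 0.609 times the control. On single arrays it was -0.07, -0.24 and -1.05 with DZN in Cy5 and -0.62, -0.80 and -1.52 with DZN in Cy3, so both arrays numbered 3 were the lowest of their orientation.

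A second warthog gene, wrt-4 (ZK678.5), had log2 intensities from 11.51 to 12.80 in DZN-treated worms (median 12.07) and from 12.05 to 13.49 in control worms (median 12.68). The ranges overlapped, and DZN was lower on 5 of 6 arrays, all but DZN-Cy5 replicate 1. The log2 ratio was -0.51 ± 0.11 (adjusted p = 0.224). It differed between orientations, with a mean of -0.13 on the DZN-Cy5 arrays and -0.89 on the DZN-Cy3 arrays (unadjusted p = 0.0101 in limma, adjusted p = 0.332 for the dye term, which no probe passed after adjustment). Without adjustment 11.7% of all probes had a dye term with a p under 0.05, as did 7 of 56 ligand-like and 4 of 27 Patched-like genes.

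The gene wrt-9 (B0344.2) had the smallest dye p of the members. Its ratios were 0.61, 0.51 and 1.00 with DZN in Cy5, and 0.05, -0.56 and -0.95 with DZN in Cy3. Its mean ratio of 0.11 ± 0.15 thus joins arrays of opposite sign (dye term unadjusted p = 0.0043, adjusted p = 0.316), and it was -0.02 without DZN-Cy3 replicate 1. For wrt-5, which embryos need to develop normally, the ratio was -0.04 ± 0.11 with a 95% interval from -0.29 to 0.20, and its sign turned to 0.02 without DZN-Cy5 replicate 2.

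The brightest warthog probe was that of wrt-10 (ZK1290.8). Its log2 intensity lay between 13.55 and 14.27 in DZN-treated worms (median 14.05) and between 14.03 and 15.20 in control worms (median 14.33), and its ratio was -0.47 ± 0.19 (adjusted p = 0.442). The ranges overlapped, and the DZN channel was lower on 4 arrays. Its neighbour wrt-1, with no annotated gene between them, had a ratio of -0.38 ± 0.18. Without DZN-Cy3 replicate 3 the ratios were -0.27 for wrt-10 and -0.18 for wrt-1. On DZN-Cy3 replicate 3 the ratios were -1.18 for wrt-10 and -1.09 for wrt-1, and on DZN-Cy5 replicate 2 they were -1.03 and -0.70. On DZN-Cy3 replicates 1 and 2 both genes were slightly above 0 (0.06 and 0.04 for wrt-10, 0.15 and 0.02 for wrt-1). Sequence shared between probes was not examined, so related probes may not be independent measurements.

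Of the ground genes, which encode secreted proteins with a Ground domain, grd-5 (F41E6.2) was both the brightest and the lowest in ratio. Its log2 intensity was 13.23 to 14.44 in DZN-treated worms (median 14.24), against 14.57 to 14.72 in control worms (median 14.64). All DZN channels were below all control channels, which held for this 1 member and for 0.0311% of all probes. No member had all DZN channels above all control channels, as 0.0667% of all probes did. The log2 ratio was -0.54 ± 0.15 (adjusted p = 0.31), or 0.69 times the control. DZN-Cy5 replicate 2 stood apart at -1.34, while the other 5 arrays were between -0.45 and -0.28, and the ratio without it was -0.37.

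Another ground gene, grd-2, was named after its values were seen because its unadjusted p was under 0.05. Its level was 8.83 to 10.54 in DZN-treated worms (median 10.09) and 9.30 to 10.97 in control worms (median 10.53). The ratio was -0.44 ± 0.12 (adjusted p = 0.313), negative on 5 of 6 arrays. The other 12 ground genes lay closer to 0, between -0.19 and 0.09. Among them were the neighbours grd-3 and grd-10, genes of the seam cells that line the epidermis, at 0.01 ± 0.20 and -0.05 ± 0.18.

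The ground-like genes were the widest in range, from -0.98 to 0.26. Of these, grl-7 (T02E9.2) encodes a protein of specialised apical matrix that is cleared with the help of the Patched relative PTR-18. Its log2 intensity was 12.99 to 13.60 in DZN-treated worms (median 13.32) and 13.48 to 13.88 in control worms (median 13.67), and its ratio was -0.38 ± 0.13 (adjusted p = 0.375). The ranges overlapped in part, and no array showed a higher DZN level. The gene ptr-18 itself had a ratio of -0.23 ± 0.12 (adjusted p = 0.528).

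A second ground-like gene negative on every array was grl-19 (R02D3.6), whose log2 intensity was 7.24 to 10.53 in DZN-treated worms (median 9.87) and 7.28 to 10.82 in control worms (median 10.23). Its ratio was -0.27 ± 0.11 (adjusted p = 0.443), with single arrays between -0.59 and -0.04. The ranges overlapped almost wholly, and 2 arrays were close to 0. The dim probe of grl-17 (C56A3.1), above background in 3 channels of each treatment, also had 1 sign throughout, at -0.56 ± 0.28 (adjusted p = 0.52). That value rested on DZN-Cy3 replicate 1, where the ratio was -2.16, and was -0.22 without it.

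**Figure D2:**
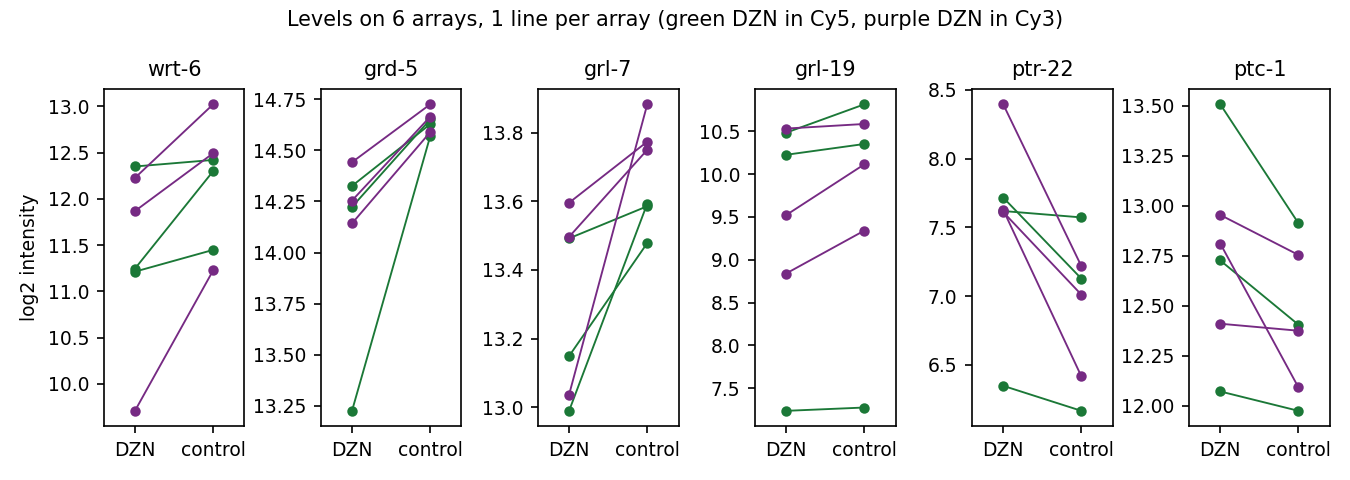
Log2 intensity of 6 members in DZN-treated worms (left) and control worms (right of each panel), with 1 line per array, green for DZN in Cy5 and purple for DZN in Cy3. Each panel has its own vertical axis. Every line runs up to the control for wrt-6, grd-5, grl-7 and grl-19, and down to the control for ptr-22 and ptc-1. These members were picked for ratios of 1 sign on every array, so the shared direction follows from that choice. The dim grl-17, also of 1 sign, is not drawn.

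The lowest ratio of any member was that of grl-27 (F40C5.3). Its log2 intensity was between 7.89 and 11.45 in DZN-treated worms (median 8.77) and between 8.99 and 11.27 in control worms (median 10.52). The mean log2 ratio was -0.98 ± 0.38 (adjusted p = 0.429), or 0.505 times the control. It was also the 1 member called by rank products, the test the study used (lower, percentage of false positives 0.0116 as a fraction), against 0.542% of all probes called lower. No member was called higher, against 0.502% of all probes. Its arrays disagreed, with -1.39, -0.39 and 0.92 for DZN in Cy5, and -2.60, -2.32 and -0.12 for DZN in Cy3. By scanner setting, the mean was -0.89 on DZN-Cy5 replicates 1 and 2, -2.46 on DZN-Cy3 replicates 1 and 2, and 0.40 on both replicates numbered 3.

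A dim ground-like gene, grl-30 (T24A6.3), had a like pattern. It was above background in 2 DZN channels and 4 control channels, with log2 intensities of 6.50 to 7.003 in DZN-treated worms (median 6.76) and 6.62 to 8.87 in control worms (median 7.43). Its ratio was -0.82 ± 0.23 (adjusted p = 0.305), and it was -1.08 with an adjusted p of 0.046 without DZN-Cy3 replicate 3. The control channels were high on DZN-Cy3 replicates 1 and 2, where the ratios were -2.37 and -1.80, and the other 4 ratios were between -0.53 and 0.19.

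The gene grl-28 was above background in no DZN channel and in 2 control channels. Its mean over the 6 DZN channels was at least 1.36-fold lower than that over all 6 control channels, taking for each DZN channel the higher of its own signal and the dimmest signal above background. That control mean holds 4 channels not above background, so the fold is no firm limit. The measured ratio was -0.54 ± 0.19 (limma adjusted p = 0.388), and it was -0.37 without DZN-Cy3 replicate 1. Its ratios were -1.83 and -1.31 on DZN-Cy3 replicates 1 and 2 and between -0.27 and 0.19 elsewhere. In the annotation grl-29, grl-30 and grl-31 follow each other with no gene between, and grl-28 lies 1 gene before grl-29. The bright neighbour grl-31 did not share the pattern, with a ratio of -0.02 ± 0.10 and single arrays between -0.23 and 0.33.

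Of the remaining ground-like genes with a known role or a small p, the brightest, grl-16, had a ratio of -0.16 ± 0.09 (adjusted p = 0.576), positive on DZN-Cy5 replicates 1 and 2 and negative on the other 4 arrays. For grl-21, which acts with ptr-24 and the nuclear receptor NHR-25 in lipid homeostasis, the ratio was -0.15 ± 0.15 (adjusted p = 0.742). For ptr-24 it was -0.25 ± 0.13 (adjusted p = 0.527). The sole ligand-like gene above 0 with a p under 0.05 before adjustment was grl-13, a dim probe at 0.26 ± 0.11 (adjusted p = 0.46). Its mean was -0.05 on the DZN-Cy5 arrays and 0.58 on the DZN-Cy3 arrays (limma dye term, unadjusted p = 0.0238, adjusted p = 0.37). The gene grl-20 had a ratio of -0.53 ± 0.20 (adjusted p = 0.426), which was -0.35 without DZN-Cy5 replicate 2.

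The genes hog-1 and qua-1, each alone in its subfamily, were both lowest on the same array. QUA-1 is a Hog-domain protein that larvae need to moult. Its log2 intensity was 12.60 to 13.84 in DZN-treated worms (median 13.62) and 13.18 to 13.88 in control worms (median 13.71), and the ratio was -0.30 ± 0.16 (adjusted p = 0.541). For hog-1 the range was 9.65 to 12.87 in DZN-treated worms (median 10.97) and 9.56 to 12.85 in control worms (median 11.49), with a ratio of -0.35 ± 0.18 (adjusted p = 0.527). The groups overlapped in both genes. Either ratio was lowest on DZN-Cy3 replicate 3, at -0.98 for qua-1 and -1.13 for hog-1, and without that array they were -0.14 and -0.18.

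Among the Patched relatives, the highest ratio belonged to ptr-22 (Y80D3A.7), a dim probe above background in 5 DZN and 4 control channels. Its log2 intensity was 6.35 to 8.40 in DZN-treated worms (median 7.62) and 6.17 to 7.57 in control worms (median 7.07). The ranges overlapped, yet the DZN channel was the higher one on every array. The ratio was 0.64 ± 0.13 (adjusted p = 0.189, the smallest of the members), or 1.55 times the control. It was 0.59, 0.18 and 0.05 with DZN in Cy5, and 1.18, 1.21 and 0.60 with DZN in Cy3 (dye term unadjusted p = 0.0241, adjusted p = 0.372).

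PTC-1, the worm Patched that the germ line needs for cell division, had log2 intensities of 12.07 to 13.51 in DZN-treated worms (median 12.77) and 11.97 to 12.91 in control worms (median 12.39). The ratio of ptc-1 (ZK675.1) was 0.33 ± 0.13 (adjusted p = 0.426), or 1.25 times the control. The ranges overlapped, and single ratios were 0.10, 0.60 and 0.32 with DZN in Cy5 (mean 0.34) and 0.04, 0.20 and 0.72 with DZN in Cy3 (mean 0.32). Both other ptc genes had several probes. The 2 probes of ptc-3, a gene needed for larval development and water balance, gave -0.15 ± 0.14 and 0.04 ± 0.22, and the 3 probes of the pseudogene ptc-2 gave 0.24, 0.08 and -0.25 from brightest to dimmest. The dimmer ptc-2 probes were near background. The middle one was above it in 2 DZN and 1 control channels, and the dimmest in 2 DZN and 3 control channels. Probes of 1 gene thus differed in sign.

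The other Patched relatives of known role did not stand out. The ratio of ptr-2, which the embryo needs for its osmotic barrier, was 0.05 ± 0.14 with a 95% interval from -0.27 to 0.38, and it was -0.07 without DZN-Cy3 replicate 1. For ptr-4, which shapes the apical matrix of the epidermis and was the brightest ptr probe, it was -0.24 ± 0.13 (adjusted p = 0.531, negative on 4 of 6 arrays). The lowest Patched-like ratio was -0.50 ± 0.20 for ptr-16 (adjusted p = 0.437), whose level was 8.83 to 11.07 in DZN-treated worms (median 9.90) and 9.72 to 10.69 in control worms (median 10.45). In ptr-13 a single array, DZN-Cy3 replicate 3, gave 1.78 while the other 5 were between -0.07 and 0.43, and the mean of 0.42 ± 0.19 was 0.19 without it.

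**Figure D3:**
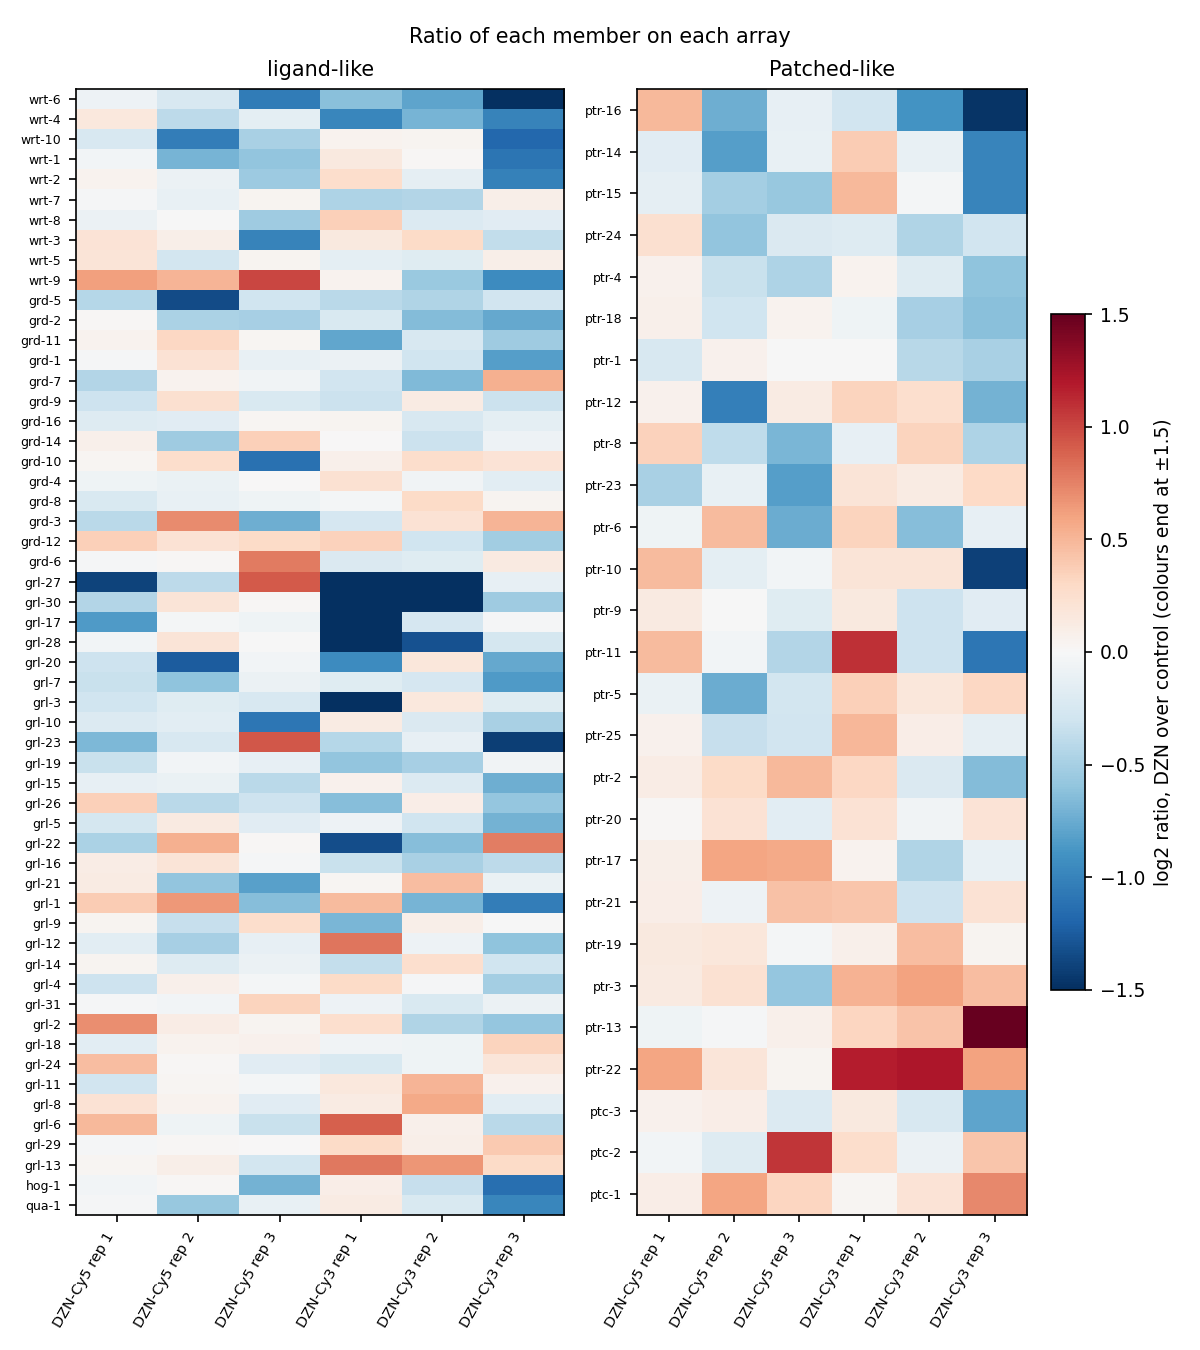
Log2 ratio of DZN over control for each member (down the page, by subfamily and then by ratio) on each of 6 arrays (across), ligand-like genes left and Patched-like genes right. Blue is lower and red is higher with DZN, and colours end at a fixed limit. Ligand-like genes show dark blue on DZN-Cy3 replicate 1 in grl-27, grl-30, grl-17 and grl-28, and on DZN-Cy3 replicate 3 in many wrt genes.

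Array by array, the median of the ligand-like genes was below 0 on 6 of 6 arrays, at -0.04, -0.04 and -0.10 on the DZN-Cy5 arrays and -0.08, -0.20 and -0.31 on the DZN-Cy3 arrays. The Patched-like median was below 0 on 4 of 6, at 0.08, -0.08 and -0.12 with DZN in Cy5 and 0.21, -0.09 and -0.17 with DZN in Cy3. The ligand-like median was the lower of the pair on 4 arrays, with a difference of ligand-like minus Patched-like between -0.29 and -0.12. On DZN-Cy5 replicates 2 and 3 it was the higher one, by 0.04 and 0.02. Leaving out any 1 array kept the ligand-like median between -0.19 and -0.10, with 42 to 45 genes below 0. The Patched-like median was 0.01, with 13 of 27 genes below 0, without DZN-Cy3 replicate 3. The difference between the classes was not tested.

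**Figure D4:**
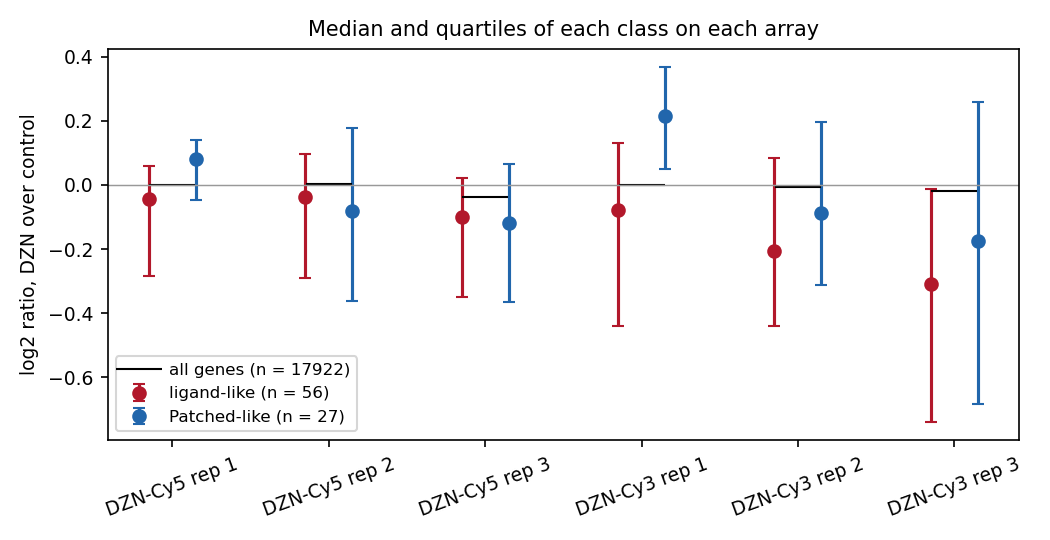
Median log2 ratio of DZN over control (points) with the lower and upper quartile (bars) for ligand-like and Patched-like genes on each of 6 arrays. Black ticks mark the median of all genes. Ligand-like medians lie below 0 on every array, and Patched-like medians lie above 0 on DZN-Cy5 replicate 1 and DZN-Cy3 replicate 1.

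The lowest ratios were spread unevenly over the arrays. DZN-Cy3 replicate 3 gave the lowest ratio in 21 of 56 ligand-like genes (37.5%) and 10 of 27 Patched-like genes (37%), against 19.8% of all genes. DZN-Cy3 replicate 1 gave the lowest ratio in 15 ligand-like genes (26.8%) and 1 Patched-like gene (3.7%), against 16.1% of all genes. The median of the 10 wrt genes was -0.98 on DZN-Cy3 replicate 3, -0.51 on DZN-Cy5 replicate 3 and between -0.19 and 0.06 on the other 4 arrays.

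Genes that mark the adult stage were low on the same arrays as grl-27, grl-28 and grl-30. The list of 14 holds the vitellogenins vit-1 to vit-6, which encode yolk proteins, the adult cuticle collagen col-19, and genes of oocytes and eggshell, and all 14 were detected. Its median ratio was -2.66 and -1.79 on DZN-Cy3 replicates 1 and 2, where 14 of 14 genes were below 0, and -0.85 on DZN-Cy5 replicate 1. On the other arrays it was -0.02, 0.37 and 0.63. The mean log2 intensity of the list was 9.21 to 11.52 in DZN-treated worms (median 9.99) and 9.61 to 11.94 in control worms (median 11.22). None passed the adjusted limma test, 5 of 14 had a lower ratio with an unadjusted p under 0.05 (vit-1, vit-3, vit-4, vit-5 and rol-1), and rank products called 7 lower. The part of stage differences between the extracts in the grl ratios was not tested.

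Some moulting genes were low on the same arrays as another set of members. The list of moulting regulators and matrix genes had 20 of 22 genes measured beside qua-1 itself, with a median ratio of -0.05 and 12 below 0, and 0 passed, adjusted or not, in either direction. The protease gene nas-37, which acts when the old cuticle is shed, had a ratio of -0.59 ± 0.26 (adjusted p = 0.479), and noah-1, which encodes an apical matrix protein, had -0.42 ± 0.21 (adjusted p = 0.526). On DZN-Cy3 replicate 3 they were at -1.68 and -1.27, and on DZN-Cy5 replicate 2 at -1.35 and -1.02, the arrays on which wrt-1, wrt-10 and qua-1 were also low. On DZN-Cy3 replicate 1 they were at 0.15 and 0.16. On DZN-Cy5 replicate 3 the patterns parted, with nas-37 at -0.04 and noah-1 at -0.09, but wrt-1 at -0.59, wrt-10 at -0.49 and hog-1 at -0.71. On DZN-Cy5 replicate 2 hog-1 was at 0.02. The median of the moulting list was 0.09, -0.24 and 0.13 on the DZN-Cy5 arrays and 0.13, -0.05 and -0.38 on the DZN-Cy3 arrays. The ratio of mlt-10, a gene expressed in the hypodermis at each moult, was -0.36 ± 0.17, and that of the moult regulator nhr-23 was -0.05 ± 0.11. The mean log2 intensity of the list was 10.29 to 10.89 in DZN-treated worms and 10.44 to 10.84 in control worms, and grh-1, which had the smallest p of the list, was alone in being above background in no channel. The part of moult timing in the ratios of the members was not tested.

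**Figure D5:**
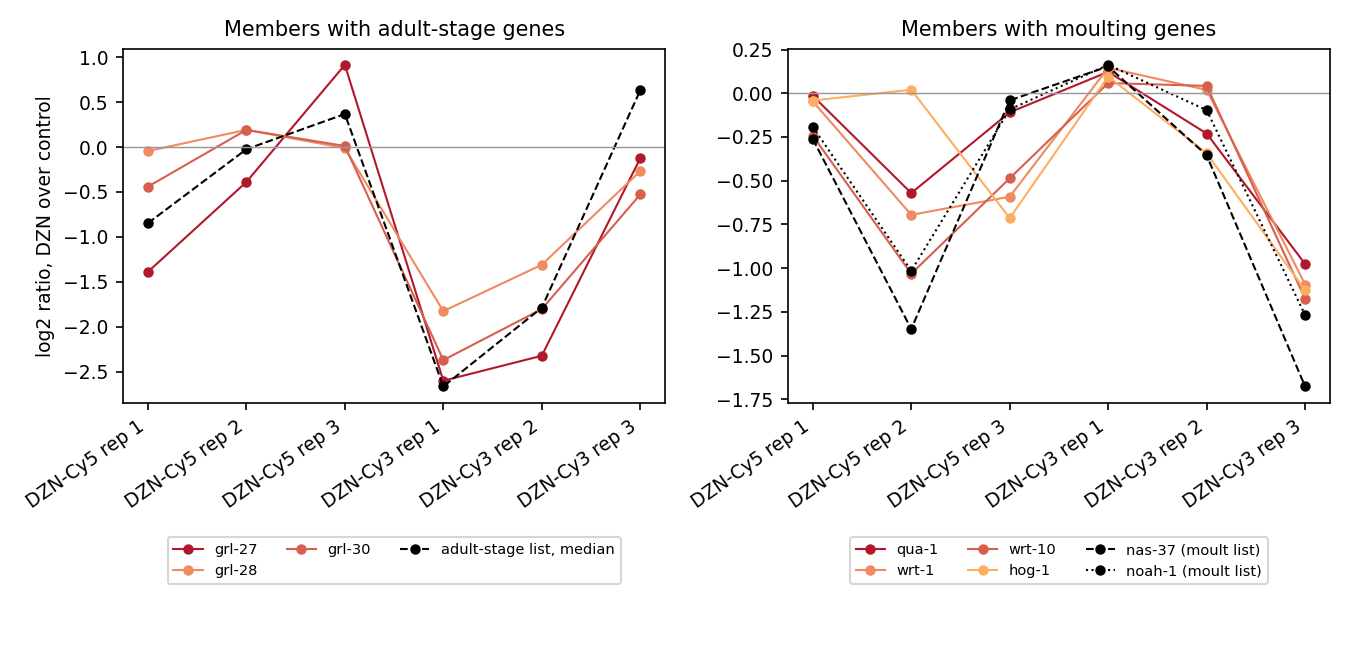
Log2 ratio of DZN over control on each of 6 arrays. On the left, grl-27, grl-28 and grl-30 are drawn beside the median of 14 adult-stage genes (dashed), and all 4 lines are lowest on DZN-Cy3 replicates 1 and 2. On the right, qua-1, wrt-1, wrt-10 and hog-1 are drawn beside the moulting genes nas-37 and noah-1. All 6 lines on the right are lowest on DZN-Cy3 replicate 3, but wrt-1 and noah-1 were picked with their values seen. The genes nas-37 and noah-1 had the lowest ratios of the moulting list, whose median on that array was -0.38. That array was also the lowest for 37.5% of all ligand-like genes.

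Of 20 other genes tied to Hedgehog signalling in worms or other animals, 19 were measured, with a median ratio of 0.09 and 7 below 0. None passed the adjusted limma test, and 1 higher and 2 lower had an unadjusted p under 0.05. The sterol transport genes ncr-1 and ncr-2, relatives of human NPC1 that also carry sterol-sensing domains, lay on opposite sides. The ratio of ncr-2 was -0.55 ± 0.15 (adjusted p = 0.303) and negative on 6 of 6 arrays, and that of ncr-1 was 0.40 ± 0.16 (adjusted p = 0.44) and positive on 5. The sterol-sensing gene scp-1, a relative of SCAP, had -0.29 ± 0.10 (adjusted p = 0.399), negative on the 3 DZN-Cy5 arrays and positive on the 3 DZN-Cy3 arrays. The Dispatched relative che-14 had -0.35 ± 0.16, lowest on DZN-Cy3 replicate 3 at -1.07. The Patched-related glial gene daf-6, whose symbol kept it out of the members, had -0.27 ± 0.20, and the GLI homologue tra-1 had 0.14 ± 0.14.

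Markers of the cells in which members are best known gave few small p-values, and none passed the adjusted limma test. Of 20 measured genes of the seam and hypodermis the median ratio was 0.08, with 7 below 0. The fusogen gene aff-1 had -0.61 ± 0.22 (adjusted p = 0.395), and the hypodermal transcription factor gene elt-3 had 0.33 ± 0.13 (adjusted p = 0.44), followed by elt-1, a regulator of epidermal fate, at 0.23 ± 0.11. Ratios of elt-1 were negative on the 3 DZN-Cy5 arrays and positive on the 3 DZN-Cy3 arrays. The mean log2 intensity of this list was 9.93 to 10.45 in DZN-treated worms and 10.05 to 10.44 in control worms, and every gene was above background in some channel. Of 11 measured genes of glia and socket cells, che-14 and daf-6 among them, the median was close to 0, at -0.0002, with 6 below 0, and vap-1, a gene of sheath glia, had 0.53 ± 0.22 (adjusted p = 0.45), followed by che-14 and by the kinase gene lit-1 at 0.27 ± 0.19. That list averaged 9.33 to 9.65 in DZN-treated worms and 9.26 to 9.69 in control worms. The 14 tissue genes had a median of 0.003 with 6 below 0, and none had a p under 0.05 even without adjustment. The smallest p-values among them belonged to ges-1 of the intestine (0.55 ± 0.29), dpy-7 of the hypodermis (-0.24 ± 0.15) and unc-119 of neurons (0.16 ± 0.13).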

How the data were processed

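Per the file headers, ScanArray Express wrote the deposited scanner tables, which give the foreground and local background intensity of each spot on a linear scale, not normalized. The deposited percent columns give pixels above background or saturated, and no member spot had over 50% of its pixels saturated. Saturation of a smaller share was not counted. A deposited quality score per spot is a code of unstated meaning. The authors also deposited log2 ratios, which equalled loess-normalized DZN over control without background correction (correlation 0.9997 to 1 per array). The submitters' processing notes name limma with no version. The study's methods name loess, Aquantile and rank products. The sources used here name no genome build for the probes, and no coordinates are printed.

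Each array held 23232 spots, 22490 of them worm probes. Probe names were updated through the RefSeq table of assembly WBcel235, used for names and gene order only: 21383 matched by name, 30 by the platform table and 1077 not at all. The brightest probe stood for a gene. Foreground means were corrected with normexp (offset 50), then loess and Aquantile in limma 3.58.1 (R 4.3.3). Log2 ratios of DZN over control were fitted with dye orientation as a term, followed by eBayes, two-sided, with Benjamini-Hochberg adjustment over all worm probes. Values after ± are standard errors from this fit, moderated by eBayes and with the difference between dye orientations taken out. They are not the plain spread over 6 arrays. For wrt-9, with a standard error of 0.15, the SD of the 6 ratios was 0.74. A spot was above background when it exceeded the mean local background by 2 SD. The number of arrays limits the precision. Rank products were rerun as a one-class test with a gamma approximation, calling a percentage of false positives under 0.05. The scripts were tested on simulated data. Beside the photomultiplier setting no batch was found in the headers, which give 1 scan day.

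The members and lists were chosen with earlier results of these data known. Members named by rule were those called, those with 1 sign on 6 arrays, the brightest of each subfamily, the 3 with the smallest dye p, those with several probes, and those with a known role. Of each list the 3 with the smallest p were named. The genes grd-2, grd-3, grd-10, grl-13, grl-18, grl-20, grl-28, grl-29, grl-31, wrt-1, ptr-13, ptr-16, ptr-24, noah-1, nhr-23, daf-6, tra-1, col-19, vit-3, rol-1 and che-14 as a pathway gene were named after their values were seen. The alternatives covered background correction, normalization, filters, dye term, eBayes, replicate block, left-out arrays, the authors' table, rank products and scanner setting.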

Additional observations from a re-analysis of the deposited data

Results flagged for a closer look

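In grd-5, the ratio on DZN-Cy5 replicate 2 was -1.34, far below the other 5 arrays, which lay between -0.45 and -0.28. In ptr-13, the ratio on DZN-Cy3 replicate 3 was 1.78, far above the other 5, which lay between -0.07 and 0.43. A test for 1 array far from the rest picked out these 2 of 32 members named. Of these, ptr-13 was named after its values were seen, so the count cannot be set against a rate. Such a test picks out about 5% of groups by chance alone, and it picked out 10.1% of all probes here.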

How the results depend on the processing

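Of 631 values of the 32 named members in other settings, 618 kept direction and side of the threshold. Direction was fixed in advance in several settings, which leave the mean ratio as it is. These were no normalization between arrays, no dye term, robust and trended eBayes, replicate block, same-numbered arrays averaged and scanner setting. No member passed in the report's fit, so keeping the side meant only not passing. The median ratio of each class, which could not move in those settings, stayed within 1 SD of its array medians in each of the others. That SD was 0.11 for ligand-like and 0.15 for Patched-like genes. For the Patched-like genes that SD exceeds the median of -0.06, which was 0.01 without DZN-Cy3 replicate 3. Of 56 ligand-like genes, 44 had a ratio below 0, 41 with median centring and 42 to 45 with 1 array left out. Of 27 Patched-like genes, 17 were below 0, 14 with median centring and 13 to 18 with 1 array left out. With spots of the dim codes left out, 26 of 32 ligand-like genes with a value were below 0, where 24 members of that class gave none.

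The number of all probes past the adjusted threshold, 4 (3 higher and 1 lower), depended strongly on the processing. It was 2 with no background correction, with the background subtracted and in the authors' table. It was 30 with median centring (19 higher and 11 lower), 8 with scale normalization, 14 with dim probes left out, 0 with robust and trended eBayes, 379 with the scanner setting as a term, 235 with rank products, and 0 to 132 with 1 array left out, the most without DZN-Cy3 replicate 3. The fit with the scanner setting measured spread only between replicates 1 and 2 of the same orientation. The cause was not tested.

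Members past the threshold were 0 in the report's fit, 4 with the scanner setting as a term, 1 with rank products, and 0 to 1 with 1 array left out. The 1 was grl-30, at -1.08 without DZN-Cy3 replicate 3 (adjusted p = 0.046). Members with an unadjusted p under 0.05 and a lower ratio were 12. They were 5 with median centring, 7 with the dim codes left out, 20 with the scanner setting as a term, and 7 to 16 with 1 array left out. Members with a higher ratio were 3. They were 1 with an offset of 0, with median centring and with robust and trended eBayes, 6 with the scanner setting as a term, and 1 to 3 with 1 array left out. The share of all probes with an unadjusted p under 0.05 was not counted in any other setting. These counts therefore do not show whether members moved more than other genes. The dye term, which no probe passed, was passed by 1394 probes with median centring, 1 with scale normalization, 1 with robust and trended eBayes and 715 with the scanner setting as a term.

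Ratios near 0 changed sign in 4 genes. The ratio of wrt-5 was 0.0203 with the dim codes left out, and grl-31 was 0.10 with median centring. With 1 array left out wrt-9 ran from -0.0224 to 0.228, wrt-5 from -0.0965 to 0.0203, ptr-2 from -0.0689 to 0.171 and grl-31 from -0.0778 to 0.0137.

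Whether the replicate numbers pair the arrays cannot be decided, because each orientation has too few arrays for these correlations to exclude a pairing. Deviations of same-numbered arrays correlated at 0.15, -0.01 and -0.08, against up to 0.29 for arrays of other numbers, and 0 of 6 arrays correlated best with their own number. With the replicate number as a block, 0 probes and 0 members passed, and 14 members were lower and 4 higher without adjustment. With same-numbered arrays averaged, the replicate block left 6 probes and 0 members, and 10 lower and 1 higher.

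Levels near background limit what can be said of 12 undetected members, and 6 arrays with weak mutual correlation limit the rest.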
